A study of Homo sapiens with 22 samples.

Results

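The heat shock protein genes described here are 10 chaperone genes: HSPA4, HSPA8, HSP90AA1 and HSP90AB1 of the cytosol, HSPD1, HSPE1, HSPA9 and TRAP1 of mitochondria, and HSPA5 and HSP90B1 of the endoplasmic reticulum (ER). They were chosen by name out of 20136 protein-coding genes, and their peaks are those with any base within 1 kb of a transcription start site (TSS) of the gene. HSPD1 and HSPE1 are transcribed away from each other, with main TSSs 539 bp apart, and the strongest peak near them was the same in every library, so the 10 genes have 9 promoters. N-MYC and WDR5 had been immunoprecipitated from CHP-134 and IMR-32 cells, both established neuroblastoma lines with amplified N-MYC. CHP-134 cells had received dimethyl sulfoxide (DMSO; 0.005% in one description and 0.0005% in another) or a compound for 4 h, with 3 libraries per antibody and treatment, and IMR-32 cells were untreated, with 2 libraries per antibody. The labels name the compound in more than one way, so it is not identified here. Each library pooled 3 ChIPs of a sample.

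Molecular chaperones bind unfolded proteins and help them fold, and the heat shock proteins are the best known of them. HSP70 and HSP90 proteins work in the cytosol with cochaperones, and mitochondria and the ER each have HSP70 and HSP90 relatives of their own. Many of these genes are switched on by heat shock factor 1 at heat shock elements, or in the ER stress response at the ER stress element. N-MYC binds DNA together with MAX, best at the E-box CACGTG, and WDR5 is a chromatin protein with which MYC proteins interact.

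The sites of CACGTG shown here were chosen because some N-MYC summit lay within 100 bp of each. The sites of TRAP1, HSPA5 and HSP90B1 and the other sites of HSPD1/HSPE1 are not printed. Of these, only the HSPA5 site had such a summit, in 1 library. The printed sites are hg19 (GRCh37) sequences on the strand of the gene, 5′ to 3′, with the E-box in capitals. The ER stress element and heat shock elements are given further on in the same way. The HSP90AB1 stretch is longer because it reaches 10 bases beyond the outermost summits of its strongest N-MYC peaks on each side. The HSPA9 stretch is longer because it also holds a heat shock element, TTCNNGAA, in capitals.
HSP90AB1, intron 1, chr6:44215160-44215226, + strand: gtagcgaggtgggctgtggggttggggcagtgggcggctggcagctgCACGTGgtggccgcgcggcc
HSPA4, intron 1, chr5:132388516-132388545, + strand: cggtcagcgtccCACGTGagtgggggcggg
HSPA8, intron 1, chr11:122932271-122932300, - strand: tcggggtaagacCACGTGttgagcaacgcc
HSPA9, upstream and start of exon 1, chr5:137911077-137911119, - strand: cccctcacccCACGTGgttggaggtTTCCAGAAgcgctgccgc
HSPD1, intron 1, chr2:198364315-198364344, - strand: tgcgggttccatCACGTGcgacgcggatcc

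CACGTG occurred within 1 kb of the main (Ensembl canonical) TSS in 9 of the 10 genes, against 29.2% of all protein-coding genes, searched on both strands of this palindrome. HSP90AA1 was the gene without it. HSPD1, HSPE1 and HSP90B1 had more than 1 such site, and the TRAP1 site lay in intron 1 and the HSPA5 site in coding exon 2. Within 250 bp upstream to 50 bp downstream of the TSS, CACGTG occurred in 3 of 10 genes (HSPE1, HSPA9 and HSP90B1), against 8.73% of all.

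The lists held 2964 to 15286 peaks for N-MYC and 15 to 5973 for WDR5, and hold no read counts, so the depth of the libraries is unknown. The compound libraries of replicate 2 stood apart for both proteins, with 2964 N-MYC and 15 WDR5 peaks, and compound WDR5 replicate 3 had 401. A peak that is not listed was not called at the q-value threshold of 0.05, which does not show that the protein was absent. The height of a peak is given as the percentile of its fold enrichment within its own list, so that 100 is the strongest peak of a library. Where a gene had several peaks, the strongest was used.

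N-MYC was found at the whole family in DMSO-treated CHP-134 cells. All 10 genes had a peak in at least 2 of the 3 libraries, as did 39.4% of all protein-coding genes, and 8 of the 10 had a peak in all 3, as did 28% of all genes. The exceptions were HSPA4 and HSPA5, each missing from 1 list. With the compound, 9 of 10 genes met the same rule (31.3% of all genes), and the one lost was HSPA4. In IMR-32 cells it was 7 of 10 (16.2% of all genes), without HSPA4, HSPA5 and HSP90AA1. Across the 8 N-MYC lists, HSP90AB1, HSPD1, HSPE1, HSPA9 and TRAP1 had a peak in every one, which is 5 of 10 genes against 8.13% of all genes. All 4 mitochondrial genes were among these, and of the 4 cytosolic genes only HSP90AB1.

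**Figure D1:**
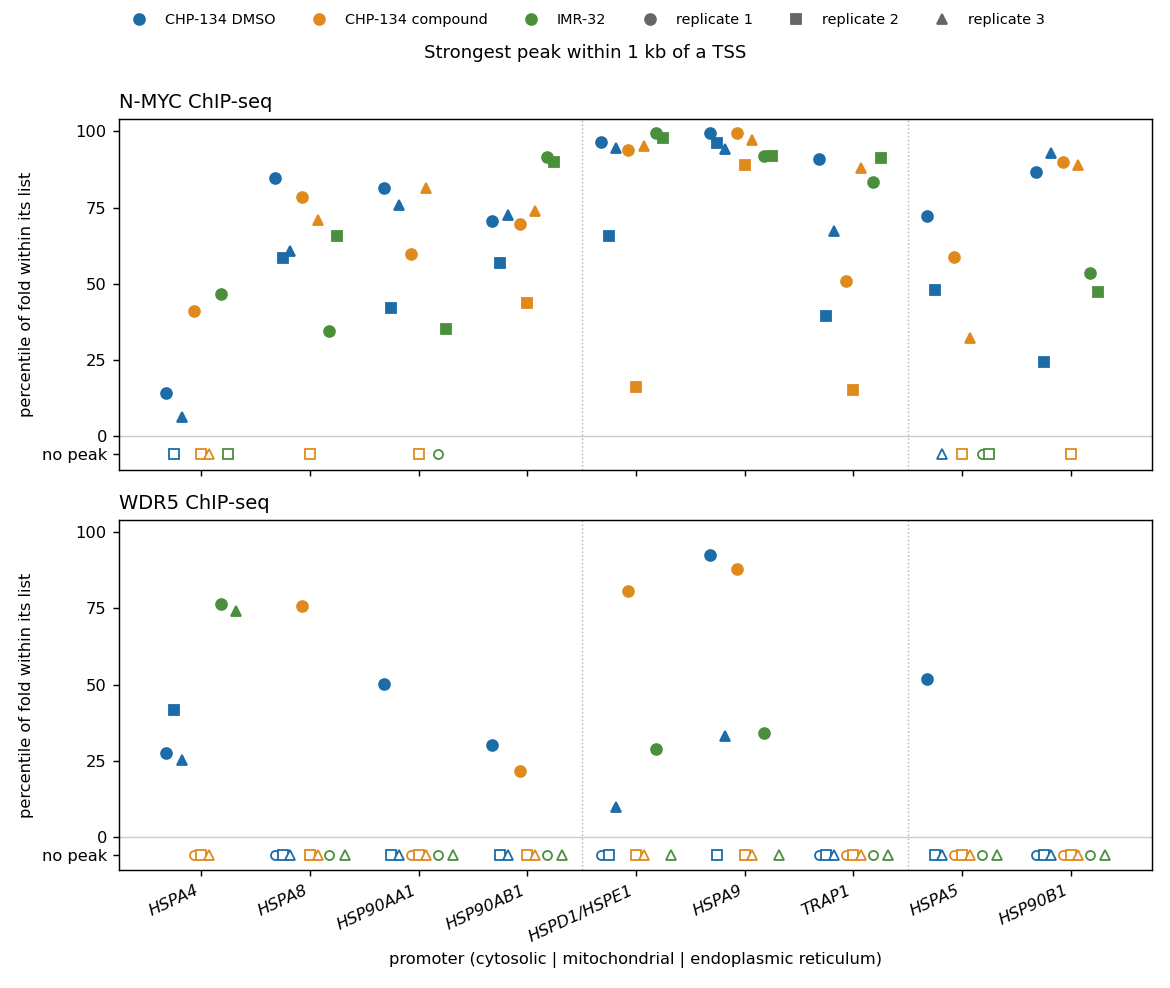
Percentile of fold of the strongest peak at each promoter (y axis, within its own list) for N-MYC (top) and WDR5 (bottom), 1 point per library, with open symbols for libraries without a peak. N-MYC is at every promoter in several libraries, with the highest DMSO means at HSPA9 (96.7) and HSPD1/HSPE1 (85.6), while WDR5 is in most libraries not listed, with HSPA4 as the promoter that has it in every DMSO and IMR-32 library.

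HSPA9, the mitochondrial HSP70 that helps draw proteins into the matrix, had the highest mean N-MYC percentile of the family in DMSO-treated cells. Its peak stood at percentiles 99.6, 96.2 and 94.3 in DMSO replicates 1, 2 and 3, a mean of 96.7 ± 2.70 (SD, n = 3). It stayed at 99.4, 89.1 and 97.1 with the compound and at 92.0 and 91.9 in IMR-32 cells. No library put it below 89.1, the value of the short compound list. In DMSO replicate 1 the peak covered chr5:137910652-137911833 with a fold of 18.8 over the local background. The 3 DMSO summits lay 28 to 98 bp upstream of the main TSS, and 5 of the 8 N-MYC summits were within 100 bp of the E-box printed above.

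HSPD1 and HSPE1, the HSP60 and HSP10 subunits of the mitochondrial chaperonin, share a wide N-MYC peak over their common promoter. Its percentiles were 96.6, 65.6 and 94.7 in DMSO, 94.0, 16.3 and 95.2 with the compound, and 99.5 and 97.8 in IMR-32 cells. Replicate 2 was the lowest of its group in both treatments, and the other 6 libraries were all at 94.0 or above. The peak was 1629 to 1793 bp wide in the DMSO libraries and held all 3 CACGTG sites there, of which 2 are in HSPD1 intron 1 and 1 is between the genes. The 3 DMSO summits lay 62 to 174 bp upstream of the HSPD1 TSS and none within 100 bp of an E-box. Compound replicates 1 and 2 had theirs 182 and 230 bp downstream, within 100 bp of the site printed above. N-MYC was also listed at a distant TSS of HSPD1, about 16 kb upstream next to MOB4, in all DMSO libraries, at percentiles 82.2, 11.5 and 43.5.

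TRAP1, the mitochondrial HSP90, was more variable. Its N-MYC percentiles were 91.1, 39.4 and 67.2 in DMSO, 50.8, 15.2 and 88.1 with the compound, and 83.5 and 91.2 in IMR-32 cells. Replicate 2 was the lowest of both treatments, and the IMR-32 values lay within the range of the DMSO values apart from the higher one, which was just above it. The summits lay 31 to 304 bp upstream of the TSS, and none was within 100 bp of CACGTG.

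HSP90AB1, the constitutive cytosolic HSP90, had the most fixed position of the strongest N-MYC peak in the family. All 8 summits of these peaks fell between 39.5 bp upstream and 6.5 bp downstream of the centre of the E-box in intron 1. The DMSO summits were at positions 44215198, 44215197 and 44215198 of chromosome 6, within 1 bp of each other. Its percentiles were 70.6, 56.7 and 72.6 in DMSO, 69.8, 43.7 and 74.0 with the compound, and 91.6 and 90.1 in IMR-32 cells. The IMR-32 values were above all those of CHP-134 cells. A weaker N-MYC peak further upstream was listed separately in DMSO replicate 2, compound replicate 1 and IMR-32 replicate 2. Its summits lay at -492, -497 and -627 bp from the TSS, at percentiles 32.2, 67.1 and 56.6.

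HSP90AA1, the inducible cytosolic HSP90, had N-MYC upstream of its TSS and no E-box nearby. The DMSO percentiles were 81.5, 42.0 and 75.7, with summits 205 to 571 bp upstream. With the compound they were 59.8 and 81.4 in replicates 1 and 3, of which the former is a peak at another TSS of the gene more than 52 kb upstream, shared with WDR20, where the main promoter stood at 54.9. IMR-32 replicate 2 had a peak at percentile 35.2 and replicate 1 none.

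HSPA8, the constitutive cytosolic HSP70, had several N-MYC peaks, upstream and in introns 1 and 3. Its percentiles were 84.7, 58.5 and 60.7 in DMSO, 78.6 and 70.8 in compound replicates 1 and 3, and 34.4 and 65.5 in IMR-32 cells. The strongest peak moved between places, from 288 bp upstream to 1726 bp downstream of the TSS. In 6 of the 8 libraries some summit was within 100 bp of the E-box in intron 1, and in 4 of these it was the strongest.

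HSPA4, an HSP110 protein that acts as exchange factor for HSP70, had the lowest mean N-MYC percentile of the family in DMSO, but not in IMR-32 cells. It was listed in DMSO replicates 1 and 3 at percentiles 14.1 and 6.24, in compound replicate 1 at 41.0 and in IMR-32 replicate 1 at 46.6. The summits of these 4 peaks lay 715 to 833 bp downstream of the TSS, and 3 of them within 100 bp of the E-box in intron 1.

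The ER genes differed from each other. HSP90B1 (GRP94, the ER HSP90) had percentiles of 86.6, 24.3 and 92.8 in DMSO, 89.8 and 89.1 in compound replicates 1 and 3, and 53.5 and 47.5 in IMR-32 cells. HSPA5 (BiP, the ER HSP70) had 72.2 and 48.0 in DMSO replicates 1 and 2, 58.9 and 32.1 in compound replicates 1 and 3, and no peak in IMR-32 cells. The HSPA5 summits were inside the gene, 282 to 563 bp downstream of the TSS in coding exons 1 and 2. The HSP90B1 summits were at the start site, from 141 bp upstream to 58 bp downstream in all but IMR-32 replicate 2, which lay 884 bp upstream.

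**Figure D2:**
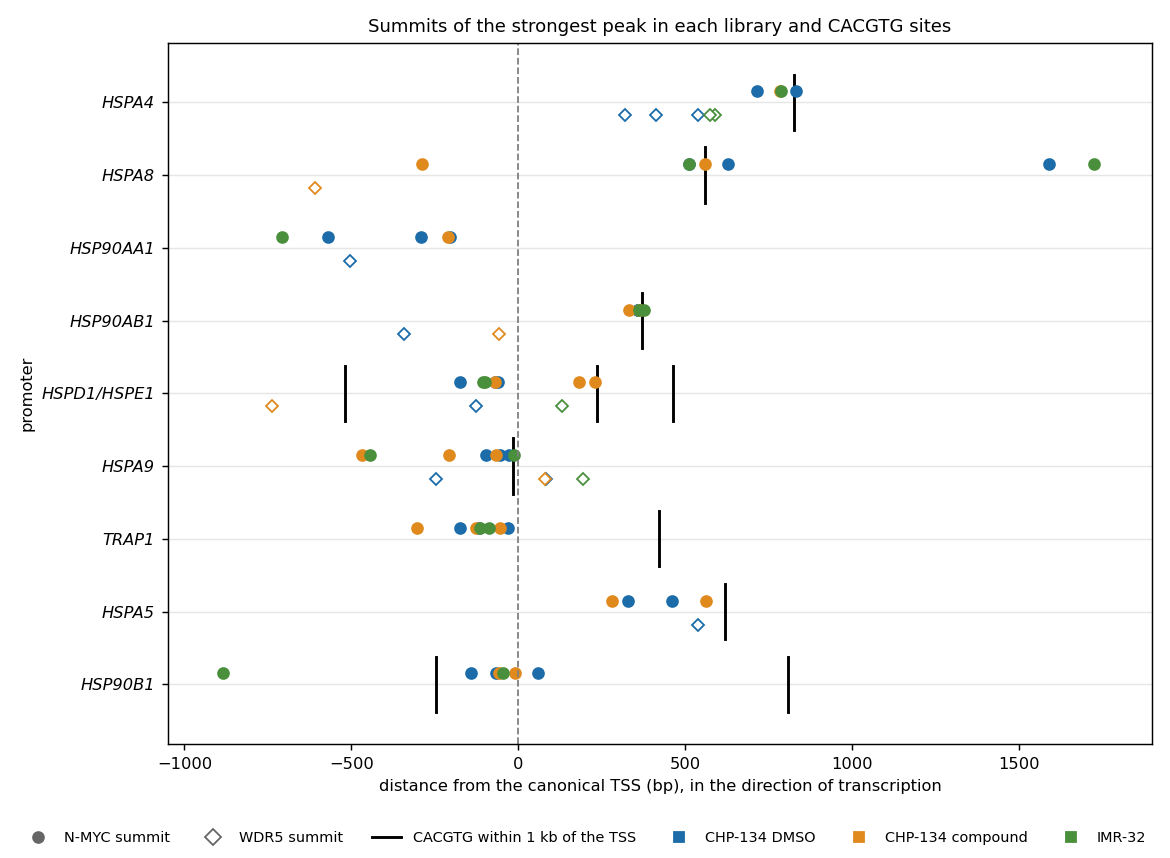
Distance in bp of the summit of the strongest peak in each library from the main TSS of the gene (for HSPD1/HSPE1, of HSPD1), with N-MYC as filled circles, WDR5 as open diamonds and CACGTG as bars. The 8 HSP90AB1 N-MYC summits stack on its E-box, those of HSPA4 lie downstream of the WDR5 summits, and 1 summit of HSP90AA1 at its distant TSS is off the axis.

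In order of the mean DMSO percentile the promoters ran HSPA9 (96.7), HSPD1/HSPE1 (85.6), HSPA8 (68.0), HSP90B1 (67.9), HSP90AB1 (66.6), HSP90AA1 (66.4), TRAP1 (65.9), HSPA5 (60.1) and HSPA4 (10.2), over the libraries with a peak. The ranges of all neighbours overlapped except those of HSPA5 and HSPA4, so most of this order is within the spread between libraries. The median over the promoters was 84.7, 52.4 and 74.2 in the DMSO libraries, 69.8, 29.98 and 84.8 with the compound, and 83.5 and 90.1 in IMR-32 cells. Over all protein-coding genes with a peak it was 51.2 to 60.7 in these libraries. The family stood above that median in 6 of 8 libraries and below it in replicate 2 of both treatments.

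The median percentile of the mitochondrial promoters stood above that of the cytosolic ones in 7 of the 8 N-MYC libraries. This did not hold for each promoter, and in DMSO replicate 2 TRAP1 was below every listed cytosolic promoter. The cytosolic median includes HSPA4 only where its peak was listed. The medians in DMSO were 96.6 against 76.0, 65.6 against 56.7 and 94.3 against 66.6, a difference of 19.01 ± 9.47 (SD, n = 3). In IMR-32 cells they were 92.0 against 46.6 and 91.9 against 65.5, a difference of 35.9 ± 13.4 (SD, n = 2). Compound replicates 1 and 3 gave 94.0 against 64.8 and 95.2 against 74.0. Compound replicate 2 went the other way, at 16.3 against 43.7, where a single cytosolic promoter, HSP90AB1, was listed. With this library the compound difference was 7.64 ± 30.6 (SD, n = 3), and without it 25.2. It was -3.12 without replicate 1 and 0.861 without replicate 3, so its sign is not settled. Each mitochondrial median rests on 3 promoters, of which HSPA9 and HSPD1/HSPE1 are high and TRAP1 varies, and no test was made of a median over members.

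**Figure D3:**
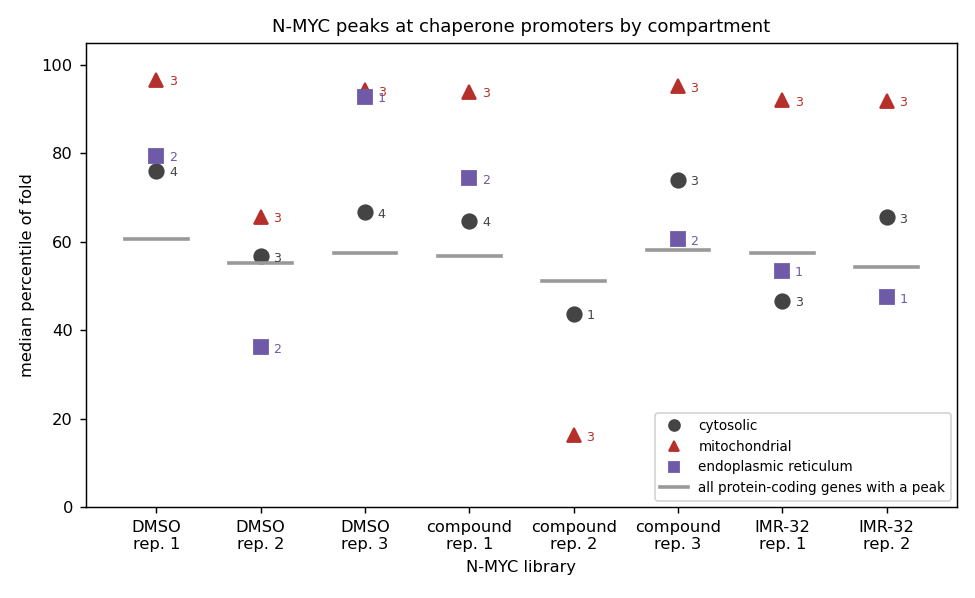
Median percentile of fold of the N-MYC peaks of each compartment (y axis) in each N-MYC library (x axis), with the number of promoters that had a peak beside each point and the median over all protein-coding genes with a peak as a grey line. The mitochondrial median is highest in 7 of the 8 libraries and lowest, at 16.3, in compound replicate 2.

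The comparison of compound with DMSO asks whether the N-MYC percentile changed at these promoters within 4 h. It could be made where a promoter had a peak in all 6 libraries, at HSP90AB1, HSPD1/HSPE1, HSPA9 and TRAP1. The mean differences, compound minus DMSO, were -4.16, -17.2, -1.47 and -14.5 percentile points, and the groups overlapped at each (exact permutation test, two-sided, p = 0.8, 0.6, 0.8 and 0.6, where 0.1 is the smallest that 3 against 3 allow). Of the 2239 genes with a peak in all 6 libraries, 6.79% were lower with the compound without overlap and 0% were higher, and the median difference over them was -9.95. Without compound replicate 2 the sign turned at all 4 promoters, to 5.23, 8.93, 1.58 and 3.56. HSPA8, HSP90AA1 and HSP90B1 could then be compared as well and gave 6.76, 4.21 and 21.6 points. DMSO replicate 2 stayed in, and it had the lowest DMSO value at each of these 7 promoters except HSPA9. At HSP90B1 it was 24.3, beside 86.6 and 92.8 in DMSO replicates 1 and 3 and 89.8 and 89.1 with the compound. The sets of replicates were thus unequal, and leaving out replicate 2 of both treatments was not done. The groups overlapped at all 7 (exact permutation test, two-sided, p = 0.5 to 0.9), where 3.26% of 4939 genes were higher and 8.24% lower without overlap. A change of the N-MYC percentile within the whole lists was not detectable at these promoters with the compound. A percentile cannot show a change that most peaks of a list share.

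Between the cell lines, N-MYC could be compared at 6 promoters. HSP90AB1 was lower in CHP-134 than in IMR-32 cells, at 66.6 ± 8.64 (SD, n = 3) against 90.8 ± 1.09 (SD, n = 2), a difference of -24.2 points (two-sided exact permutation test, p = 0.1, which is also the lowest that 3 against 2 allow). HSPD1/HSPE1 was also lower without overlap, by -13.0 points (exact p = 0.5). This size rests on DMSO replicate 2, without which the difference was -3.01 points. These are 2 of 6 promoters, where 6.73% of 2824 genes were lower without overlap. HSPA9 was higher in CHP-134 cells without overlap, by 4.75 points (exact p = 0.2), as were 25.1% of genes. HSPA8, TRAP1 and HSP90B1 overlapped, with differences of 18.0, -21.4 and 17.4 points. At HSPA8 the values of DMSO replicate 1 and IMR-32 replicate 1 are peaks in intron 3, and the peaks nearer the TSS stood at 69.2 and 3.27. At HSP90B1 the IMR-32 replicate 2 value is a peak 884 bp upstream, and the peak nearest to the TSS stood at 6.56. The line comparison was not repeated with the nearest peaks. Leaving out 1 library gave 2.42 (without IMR-32 replicate 1) to 33.5 (without IMR-32 replicate 2) at HSPA8, and 9.58 without DMSO replicate 1. TRAP1 gave -34.1 without DMSO replicate 1 and -8.18 without DMSO replicate 2. HSP90B1 gave 8.08, 39.2 and 4.97 without DMSO replicates 1, 2 and 3. None of the 2824 genes could reach an unadjusted p of 0.05 in this design, and the lowest adjusted p was 0.488 (Benjamini-Hochberg over all genes tested by the exact permutation test). The CHP-134 cells compared here had received DMSO and the IMR-32 cells were untreated. The lines were also sequenced in different runs, CHP-134 with single and IMR-32 with paired reads. Line, run and DMSO therefore cannot be told apart.

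WDR5 was listed at far fewer of these genes. In DMSO-treated CHP-134 cells HSPA4 and HSPA9 had it in at least 2 libraries, 2 of 10 genes against 8.72% of all. Both also had N-MYC by this rule, as did all 10 members. Of the 1755 protein-coding genes with WDR5 by this rule, 1601 had N-MYC too, which is 7.95% of all genes. In IMR-32 cells WDR5 met the rule at HSPA4 alone (4.99% of all genes), and with the compound at 0 of 10 (1.37% of all genes). TRAP1 and HSP90B1 had no WDR5 peak in any library.

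At HSPA4 the WDR5 percentiles were 27.7, 41.7 and 25.1 in DMSO and 76.6 and 74.3 in IMR-32 cells. It was the one promoter of the family with WDR5 in all 5 of these libraries. Of the 822 genes with WDR5 in every DMSO library, 147 lacked N-MYC in 1 or more of the 3 N-MYC lists, and HSPA4 was among them. The line difference, CHP-134 minus IMR-32, was -43.9 points, 31.5 ± 8.91 (SD, n = 3) against 75.4 ± 1.62 (SD, n = 2), with no overlap (two-sided exact permutation test, p = 0.1). Of the 536 genes that could be compared, 8.21% were lower in CHP-134 cells without overlap and 23.5% higher. The WDR5 summits lay in intron 1, in DMSO replicate 1 in coding exon 1, and upstream of the mean N-MYC summit, by 236 to 453 bp in CHP-134 cells and by 197 and 212 bp in IMR-32 cells. None of the 5 was within 100 bp of the E-box that 3 of the N-MYC summits reached.

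HSPA4 had no WDR5 peak in any compound library. Replicate 1 of these held 5973 peaks, more than any DMSO list. Of the 822 genes with WDR5 in every DMSO library, 38.7% had no peak in any compound library and 42.3% had none in replicate 1. The other compound lists held 15 and 401 peaks.

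At HSPA9 WDR5 was at 92.5 in DMSO replicate 1 and 33.0 in replicate 3, with no peak in replicate 2. Compound replicate 1 had it at 87.8 and IMR-32 replicate 1 at 34.1. HSPD1/HSPE1 had WDR5 in 1 library of each group, at 9.72 in DMSO replicate 3, 80.6 in compound replicate 1 and 28.9 in IMR-32 replicate 1, with summits 738 bp upstream to 130 bp downstream of the HSPD1 TSS. The remaining WDR5 peaks were in replicate 1 only, with HSP90AA1 at 50.1, HSPA5 at 52.0 and HSP90AB1 at 30.1 in DMSO, and HSPA8 at 75.8 and HSP90AB1 at 21.7 with the compound. At HSP90AB1 these WDR5 summits lay 341 and 59 bp upstream of the TSS, away from the summits of the strongest N-MYC peaks in intron 1. A weaker WDR5 peak of compound replicate 1, at percentile 9.48, had its summit at -566 bp. The separate upstream N-MYC peak of the same replicate, chr6:44213678-44214779 with its summit at -497 bp, covered that WDR5 summit. In DMSO replicate 1 the N-MYC peak, chr6:44213590-44215708, was wide enough to cover the WDR5 summit as well. No member had N-MYC and WDR5 in every library of a line, so the levels of the proteins were not tested against each other.

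CACGTG lay wholly within 100 bp of the summit at 4 of 9, 3 of 8 and 3 of 8 member promoters in DMSO N-MYC replicates 1, 2 and 3. Over all promoter peaks of these libraries the share was 27.0% ± 3.12 (SD, n = 3). HSPA8, HSP90AB1 and HSPA9 had it in all 3, at HSPA8 in replicate 1 at another CACGTG in intron 3, and HSPA4 had it in replicate 1. For WDR5 in DMSO, HSPA5 had it in replicate 1, and the share over all promoter peaks was 18.2% ± 1.59 (SD, n = 3).

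Heat shock elements were searched as GAANNTTC or TTCNNGAA, 8 letters that occur often by chance and may overlap each other. Within 250 bp upstream to 50 bp downstream of the TSS, HSPA8, HSP90AA1, HSPD1 and HSPA9 had one, 4 of 10 genes against 11.1% of all protein-coding genes. Within 1 kb of the TSS 9 of 10 genes had one, against 59.2% of all. The run of overlapping elements nearest to each of 3 start sites is shown because the element is the one known for heat-induced genes of this family, with the elements in capitals.
HSPD1/HSPE1, 3 elements, chr2:198364786-198364815, - strand: ggcattTTCTGGAAAGTTCTGGAAccgagc
HSPA8, 2 elements, chr11:122932879-122932908, - strand: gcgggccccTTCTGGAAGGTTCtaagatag
HSP90AA1, 2 elements, chr14:102553449-102553478, - strand: ggagggttcTTCCGGAAGGTTCgggaggct
These runs were centred 236.5, 49 and 82 bp upstream of the TSS. HSPA8 had another run of 2, centred 224 bp upstream. TRAP1 had no element within 1 kb. The summits of the strongest N-MYC peaks of HSP90AB1 were at its E-box and not at its own runs, which were centred 683 and 736 bp downstream of the TSS. In the 3 DMSO N-MYC libraries 4.83% ± 0.239 (SD, n = 3) of all promoter peaks had an element within 100 bp of the summit. Among the members this held for HSPA5 in replicate 1, HSPA9 in replicate 2, and HSPA9 and HSPD1/HSPE1 in replicate 3.

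The ER stress element, CCAAT and CCACG with 9 bases between them on either strand, was found within 1 kb of the TSS in 0.194% of all protein-coding genes. HSPA5 and HSP90B1, the ER members, had it and the other 8 did not. They are printed with the element in capitals.
HSPA5, chr9:128003665-128003694, - strand: ccttcaCCAATCGGCGGCCTCCACGacggg
HSP90B1, chr12:104323989-104324018, + strand: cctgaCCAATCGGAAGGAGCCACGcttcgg
HSP90B1, in the reverse direction, chr12:104324094-104324123, + strand: gggtgCGTGGTGCGGCGCGATTGGtgggtt
At HSP90B1, 5 of 7 N-MYC summits were within 100 bp of the element nearer to the TSS, centred 80 bp upstream. At HSPA5 no summit was, and the summits lay 339 to 620 bp downstream of it.

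Among 74 other chaperone genes, 49 (66.2%) had N-MYC in at least 2 DMSO libraries, beside 39.4% of all protein-coding genes. It was 40 with the compound (54.1%, beside 31.3% of all genes) and 21 in IMR-32 cells (28.4%, beside 16.2%). By role these were, in DMSO, 19 of 23 J-domain cochaperones, 7 of 10 nucleotide exchange factors, 7 of 10 HSP90 cochaperones, all 6 mitochondrial proteases and disaggregases and all 4 heat shock factors. Small heat shock protein genes had it in 2 of 9 and further HSP70 and HSP110 genes in 4 of 12. WDR5 met the rule at 7 of the 74 (9.46%), which were DNAJB9, DNAJB12 and DNAJC8 (J-domain cochaperones), SIL1 (an exchange factor of the ER), AHSA1 (which stimulates the HSP90 ATPase), CLPB (a mitochondrial disaggregase) and HSF2 (a heat shock factor). This share was close to the 8.72% of all protein-coding genes. Of these, AHSA1 was like HSPA4 in having WDR5 in all 5 libraries of DMSO and IMR-32, at 72.4 ± 17.5 (SD, n = 3) and 69.9 ± 17.3 (SD, n = 2), with N-MYC in 1 DMSO library and both IMR-32 libraries. DNAJB9, DNAJB12 and SIL1 had WDR5 in the same 5 libraries and N-MYC in all 5 N-MYC libraries.

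Outside the family, the genes with percentiles most like those of HSPD1/HSPE1 over the 10 DMSO and IMR-32 libraries, with 0 where no peak was listed, were LRRC8B (mean absolute difference 4.52 points), and EEF1AKMT3 and ENSG00000257921, which had the same peaks as each other (4.83 points).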

How the data were processed

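Peak lists of 16 ChIP-seq libraries were used, 12 of CHP-134 and 4 of IMR-32 cells. The IgG samples were not analysed here. Per the study's methods, adapters had been removed with Cutadapt, Bowtie2 had mapped the reads on hg19, and the authors ran MACS2 on every library separately with a q-value of 0.05. Tool versions and the control library are not given in the sources used here. The deposited fold is the authors' linear ratio over local background at the summit, the authors deposited the p-value and the q-value as −log10, and their score is 10 times the latter cut to an integer in nearly all rows. The fold ranked the peaks, the q-value was an alternative, and the p-value and score were not used. Depth is unknown, since the lists hold no counts. Percentiles use mean ranks within a list. A percentile depends on how many weak peaks a list holds.

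TSSs of any transcript came from GENCODE 44 on GRCh37, whose chromosomes hold every peak. Values per promoter are the strongest peak within 1 kb. Summit distances in the text are from the canonical TSS. By the planned measure, the annotated TSS nearest to the mean DMSO N-MYC summit, the means were closer to 0 at some promoters, for example -1.33 bp at HSPD1/HSPE1. Two-sided exact permutation tests compared group means for promoters with a peak in every library of both groups. Same-numbered compound and DMSO libraries deviated together (correlations 0.591, 0.539 and 0.589 across 2239 genes), so an alternative, the replicate block, paired them by number. The main compound and DMSO tests and overlap calls did not use this pairing. Libraries were not stated to come from separate cultures in the labels, though the study's methods speak of independent repeats, and p-values measure the spread between these libraries. Python 3.11.15, numpy 2.4.6, pysam 0.24.0 and samtools 1.23.1 were used, and percentiles, overlaps and tests were checked on simulated data.

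The members and lists were chosen with earlier results of these data known. All 10 members are named. Of 75 other chaperone genes, 74 were found in the annotation. They are given as counts and, with WDR5 in at least 2 DMSO libraries, by name. The 3 genes most like HSPD1/HSPE1 were those with the smallest mean absolute difference over 10 libraries. Alternatives were other rules for a listed gene, other percentiles, the replicate block, other motif windows, and leaving out each library.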

Additional observations from a re-analysis of the deposited data

How the results depend on the processing

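The counts of genes with N-MYC moved most for the compound, to 5 when every library had to list the gene, and from 5 to 9 on leaving out a library. For WDR5 in DMSO the count of 2 became 1 with every library, 7 with at least 1 library and 0 at a −log10 q of at least 10, and 1 to 2 without a library. For WDR5 with at least 1 library the count was 5 with the compound and 4 in IMR-32 cells, and in IMR-32 it was 1 to 4 without a library (where the single list left had to hold the gene). Canonical TSSs alone, chosen after seeing the data, gave the same counts in all 6 groups. The share of all protein-coding genes was not computed for these other rules in the WDR5 and compound groups. A looser rule raises that share too, so the changed counts are not a result about the members.

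For compound minus DMSO, percentiles over shared regions turned HSP90AB1 to 11.9 points, without overlap (1 of 4 promoters), and HSPA9 to 3.52. The share of all genes without overlap was not computed over shared regions. Among equal numbers of strongest peaks HSP90AB1, HSPD1/HSPE1, HSPA9 and TRAP1 turned to 14.6, 4.25, 4.18 and 3.89. Leaving out a library gave -9.90 to 5.23, -30.5 to 8.93, -3.56 to 1.58 and -32.9 to 3.56. The positive values were those without compound replicate 2, with DMSO replicate 2 kept. The replicate block, which pairs libraries by number, used the same values, so the median difference of -9.33 and the overlap calls could not change. Only the p-values were computed anew (exact sign-flip test, p = 0.5 to 0.75, where 0.25 is the smallest that 3 pairs allow). Between the lines, HSP90AB1 gave -47.0 points over shared regions, -63.5 among the strongest peaks and -10.3 ranked by −log10 q. HSPD1/HSPE1 gave -26.8, -25.9 and -6.63 in the same order, and TRAP1 -33.2, -50.1 and -1.88. HSPA8 gave 5.21 over shared regions and 31.4 by −log10 q, HSP90B1 11.1 among the strongest peaks, and HSPA9 7.28 by −log10 q. HSPA8 turned to -2.44 among the strongest peaks. Leaving out a DMSO library gave 3 or 4 of 6 promoters without overlap, and the share of all genes was not computed for this. Leaving out an IMR-32 library left a single value there, so overlap is not counted. The HSPA4 WDR5 difference was -28.0 over shared regions, -65.0 among the strongest peaks and -18.5 ranked by −log10 q. CACGTG within 100 bp of the summit in at least 2 libraries was at 3 DMSO, 2 compound and 2 IMR-32 N-MYC promoters. These counts were 5, 4 and 2 with 250 bp, and 2, 1 and 1 with 50 bp. DMSO WDR5 had 0 with 100 bp and 1 with 250 bp. The share of all promoter peaks grew with the window too, so the changed counts are not a result about the members. In DMSO N-MYC replicates 1, 2 and 3 it was 23.6, 29.6 and 27.8% with 100 bp and 29.96, 37.02 and 34.4% with 250 bp. For compound N-MYC it was 19.5, 32.7 and 20.6% with 50 bp and 34.002, 54.7 and 34.1% with 250 bp. The cause was not tested for any of these. WDR5 against N-MYC, and WDR5 with compound against DMSO, could not be run for any member, since none had a peak in every library.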
